A study of Mus musculus with 2 samples.

Results

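The cytosolic ribosomal proteins are the protein subunits of the ribosome that translates messenger RNA outside mitochondria. Their genes were taken as the protein-coding genes whose mouse symbol is Rpl or Rps followed by a number, with an optional letter or paralogue number, or is Rplp0, Rplp1, Rplp2 or Rpsa, and that had at least 100 reads over both libraries. Of 83 genes with such a name, 79 had that many reads, 32 of the small subunit and 47 of the large subunit, among 35275 genes in the table. The 4 genes below 100 reads were Rpl24, with 18 reads in each library, and Rpl3l, Rpl10l and Rpl39l, with 0 reads in both. The members nearest to the limit from above were Rpl26, with 1432 reads over both libraries, and Rpl29, with 3613.

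RNA was sequenced from AML12 cells, a mouse hepatocyte line made from the liver of a mouse carrying a human TGF-alpha transgene, which the labels describe as male, strain CD-1 and 3 months old. The control group was untreated. The senescent group received 1 mM hydrogen peroxide for 1 hour followed by 23 hours of recovery on the first day, and 750 µM on the same schedule on each of 5 further days. Each condition gave 1 library made from 3 pooled samples, so no difference between the conditions has a replicate check, no test was possible, and no p-value is given. The control library held 28021941 reads and the senescent library 25738075.

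A ribosome joins a small subunit, which holds the messenger RNA and reads its codons, to a large subunit, which makes the peptide bonds. Each subunit holds a single copy of nearly every ribosomal protein, so cells make these proteins in matched amounts, and much of that matching is done at translation, through a pyrimidine tract at the 5' end of the messenger RNAs that the mTOR pathway acts on. Ribosomal proteins that are not built into subunits are degraded, and the free pair Rpl5 and Rpl11, bound to 5S ribosomal RNA, can inhibit Mdm2, the ubiquitin ligase of p53.

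Hepatocyte markers were present in both libraries. Of 12 such markers, 11 were in the table and all 11 had at least 100 reads, led by the keratin Krt8, with 119403 control reads and 144783 senescent reads. Their summed level was 4411 reads per kilobase of exon per 1000000 scaled reads in control and 5258 in senescent cells. Krt8 and a second keratin, Krt18, made up 3066 and 4691 of this sum, and the other 9 markers 1345 and 566. Alb, which encodes serum albumin, had 32076 and 2917 reads, a log2 ratio of -3.23 (TMM scaling, described below), and Apoa1, Cebpa and Ttr stood at -3.13, -1.44 and -0.91. Hnf4a, a transcription factor of hepatocyte identity, was at 0.14. The cholangiocyte markers, of which 4 of 5 had at least 100 reads, summed to 1001 and 725 on the same scale, with Spp1, which encodes osteopontin, at 531 and 259. Log2 ratios were -1.43 for Krt7, -1.04 for Spp1, -0.025 (-0.053 to 0.0023) for Krt19, the most read, and 0.54 for Sox9, with Epcam, a surface marker of bile duct cells, at 0 reads in control and 1 read in senescent cells. Markers of other cells were near 0, with 77 and 156 reads over 6 macrophage genes led by Ptprc, 27 and 5 over 6 fibroblast and stellate genes led by Col1a1, 5 and 13 over 5 endothelial genes led by Pecam1, and 4 and 7 over the 2 erythroid genes, all from Hba-a1. The macrophage gene Adgre1, the fibroblast gene Col3a1 and the erythroid gene Hbb-bs were at 0 in both. In bulk RNA, fewer cells of a type and less RNA per cell cannot be told apart, and the part of the shifts in hepatocyte and cholangiocyte markers in the values below was not tested.

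The ribosomal protein genes took nearly the same part of both libraries. They held 1723332 reads in the control library, 6.15% of all reads (exact 95% interval 6.14% to 6.16%), and 1566800 reads in the senescent library, 6.09% (6.08% to 6.10%). Genes of the small subunit made up 2.47% of control reads and 2.42% of senescent reads, and genes of the large subunit 3.68% and 3.67%. Intervals here and below cover counting error only, since the reads carry no molecular identifiers and the spread between cultures was not measured. A share is relative to all other messenger RNA, and the amount of RNA per cell was not measured.

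Gene by gene, the senescent library was compared with the control by a log2 ratio of reads after TMM scaling, a method that corrects library size for differences in composition. Over the 79 members the median log2 ratio was 0.11, with the lowest member at -0.33 and the highest at 0.41. No member lay past 0.5 in either direction, against 20.1% of all 11291 genes with at least 100 reads that were lower than -0.5 with an interval below 0, and 15.5% that were higher than 0.5 with an interval above 0. None lay past 1.5, against 4.75% of all genes. Among the 1084 genes with at least 10000 reads, a group with read numbers like those of most members, 8.76% were lower past -0.5, 19.9% higher past 0.5 and 2.77% past 1.5. The range of the members held 52% of all genes and 62.1% of these 1084. The standard deviation of the log2 ratios was 0.15 among the members, 0.58 among genes with at least 10000 reads and 0.73 among all genes.

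The small shift of the group depended on how the libraries were scaled. Under TMM scaling 58 members lay above 0 and 21 (26.6%) below, where 49.6% of all genes and 33.2% of genes with at least 10000 reads lay below. Under total-count scaling the split was 40 above and 39 below, where 58.1% of all genes lay below, and the median of the members was 0.0021. Total-count scaling lowered every gene by 0.11 on the log2 scale, which put the median of all genes at -0.10 in place of 0.0061. The median of the members stood 0.10 above that of all genes, a distance that scaling leaves as it is, but below the median of 0.16 over the genes with at least 10000 reads. Over the 4 scalings tried, 40 members were above 0 and 21 below 0 each time, and the sign of the other 18 turned with the scaling.

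**Figure D1:**
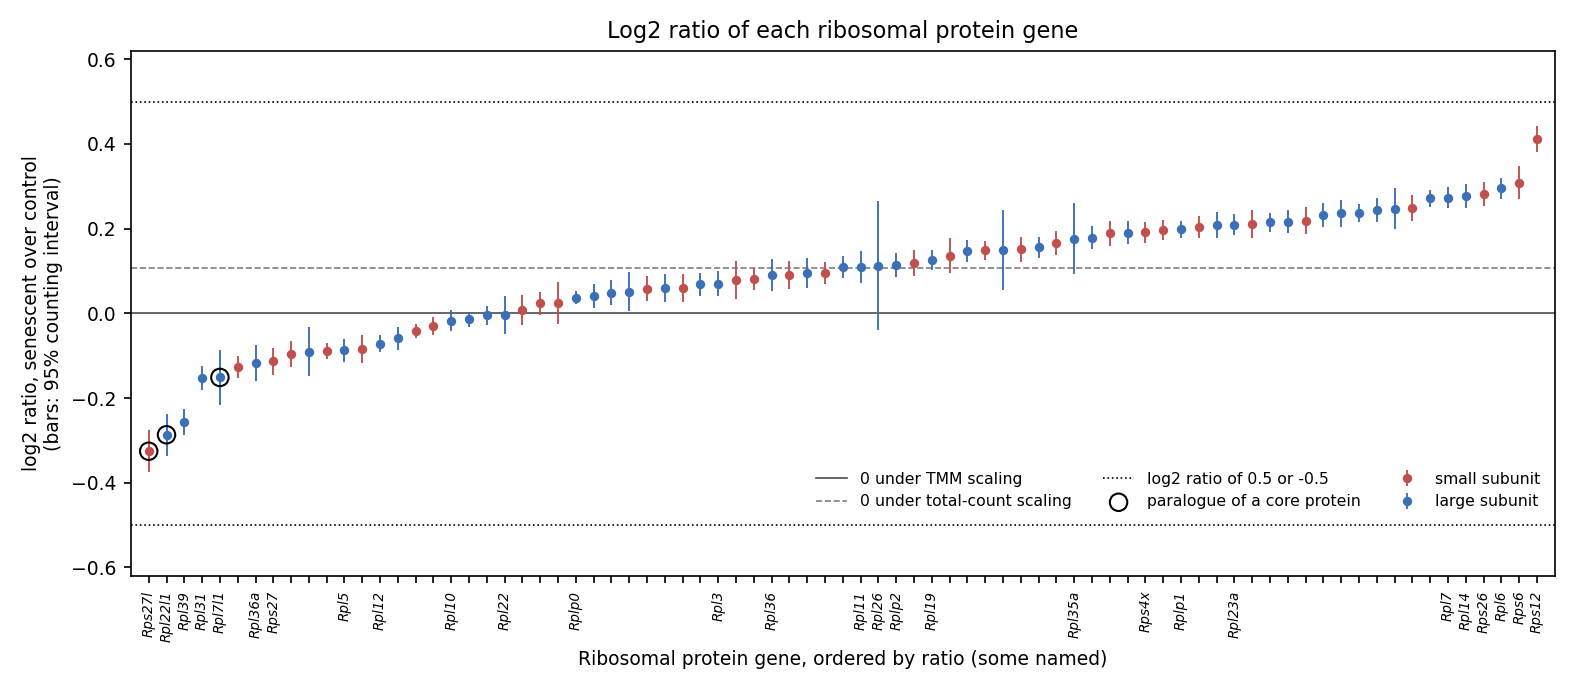
Each point is 1 ribosomal protein gene, ordered by its log2 ratio of senescent over control reads (vertical axis, TMM scaling), with bars for the 95% counting interval, red for the small and blue for the large subunit, rings on paralogues of a core protein, and names below some of the genes. All 79 points lie between the dotted lines at 0.5 and -0.5, and the 18 genes that fall between the solid line (0 under TMM scaling) and the dashed line (0 under total-count scaling) change sign with the scaling.

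Levels between genes were compared as reads per kilobase of the gene's annotated exons per 1000000 scaled reads. On this scale the median member was at 359.6 in control and 409.7 in senescent cells, where the median over all genes with at least 100 reads was 7.93 and 8.04. Of the 18 genes above 1000 in the control library 6 were members, and of the 26 in the senescent library 7 were. The highest member in both libraries was Rplp1, an acidic protein of the ribosomal stalk, at 2739.9 and 3144. Rplp0, which anchors that stalk, followed at 1407 and 1444, then Rpl23a, which lies at the mouth of the peptide exit tunnel, at 1132 and 1309, Rpl19 at 1091 and 1191, and Rpl36 at 1054 and 1121, both of the large subunit. These 5 genes held the same order in both libraries. Rpl23a counted 27886 control and 27503 senescent reads (log2 ratio 0.21, interval 0.19 to 0.23), Rpl19 32425 and 30177 (0.13, 0.10 to 0.15) and Rpl36 11735 and 10652 (0.090, 0.052 to 0.13, but -0.017 under total-count scaling). At the other end stood Rpl26 at 17.7 and 19.2, Rpl35a at 23.3 and 26.4, with 2393 and 2307 reads and a log2 ratio of 0.18 (0.094 to 0.26), and Rpl7l1, a relative of Rpl7, at 44.3 and 39.9. Control and senescent levels ranked the 79 genes almost alike (Spearman's rho 0.99 across genes, which are not independent replicates and share both libraries). Levels rest on the length of all annotated exons together, which is longer than the mature transcript where retained introns are annotated.

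**Figure D2:**
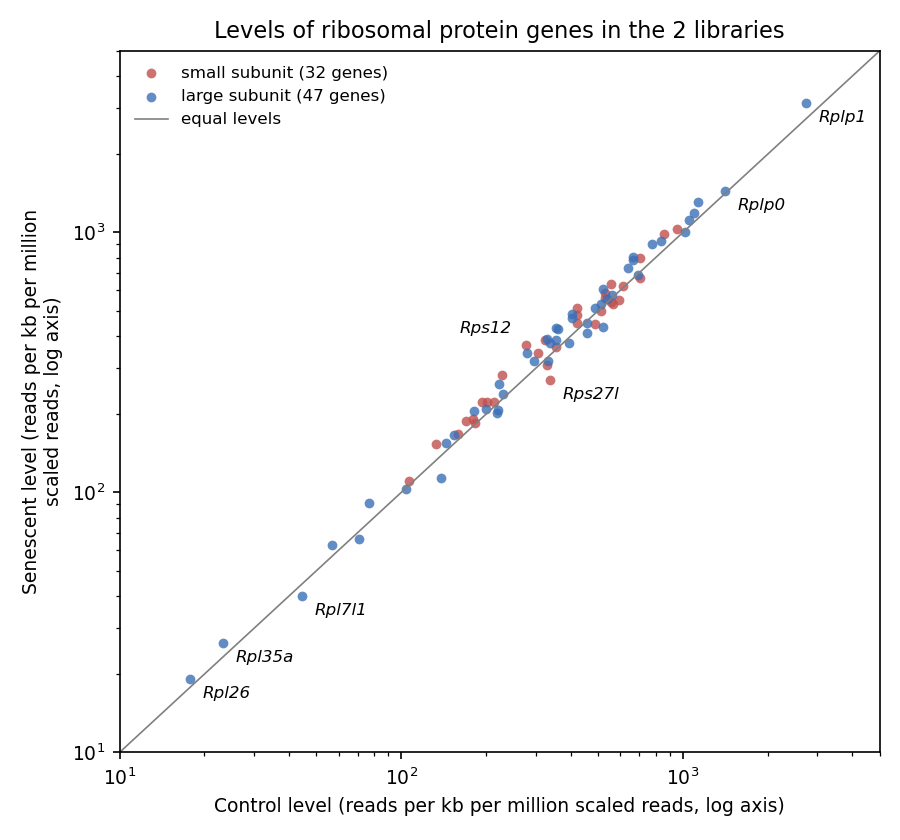
Level of each ribosomal protein gene in the control library (horizontal axis) and in the senescent library (vertical axis), both as reads per kilobase per 1000000 scaled reads on log axes, in red for the 32 small subunit and blue for the 47 large subunit genes. The points follow the line of equal levels from Rpl26, at 17.7 in the control, to Rplp1, at 2739.9, with Rps27l below the line and Rps12 above it.

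Both subunits had similar medians. The median log2 ratio was 0.093 over the 32 small subunit genes and 0.11 over the 47 large subunit genes under TMM scaling, and -0.014 and 0.0028 under total-count scaling, so the sign of the small subunit median turned. In the small subunit 24 genes lay above 0 and 8 below, and in the large subunit 34 and 13.

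In the small subunit, the head is the part that swings as the messenger RNA and transfer RNAs move. Its 15 genes, with Rack1 counted in, had a median of 0.096, which became -0.011 under total-count scaling. Rps12 held the highest ratio of all members. It was counted 16334 times in the control and 18535 times in the senescent cells (log2 ratio 0.41, interval 0.38 to 0.44). The lowest gene of the head was Rps27a, made as a fusion with ubiquitin, with 27853 control and 21762 senescent reads (log2 ratio -0.13, interval -0.15 to -0.10). Both kept their sign under all 4 scalings.

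Along the path of the messenger RNA, the entry and decoding group of Rps2, Rps3, Rps23 and Fau had a median of 0.084, which turned to -0.023 under total-count scaling. Rps3, which lines the entry channel and also acts in DNA repair, went from 66703 reads in control to 55249 in senescent cells (log2 ratio -0.042, interval -0.058 to -0.026). Rps26, which touches the messenger RNA upstream of the start codon at the exit of the channel, lay at the other end with 18890 control and 19582 senescent reads (log2 ratio 0.28, interval 0.25 to 0.31). Rps6, the protein that the S6 kinases phosphorylate below mTOR, had the second highest ratio of all members. It was counted 10509 times in control and 11099 times in senescent cells (log2 ratio 0.31, interval 0.27 to 0.35).

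In the large subunit, Rpl5 and Rpl11 form the 5S ribonucleoprotein with 5S ribosomal RNA. Rpl5 went from 25070 reads in control to 20124 in senescent cells (log2 ratio -0.087, interval -0.11 to -0.061). Rpl11 went from 12038 reads in control to 11078 in senescent cells (log2 ratio 0.11, interval 0.072 to 0.15). The pair lay on opposite sides of 0 under TMM scaling, and under total-count scaling Rpl11 was at 0.0028.

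The stalk recruits elongation factors and is built from Rplp0, Rplp1 and Rplp2 on a base that includes Rpl12. Rplp1 went from 39759 reads in control to 38913 in senescent cells (log2 ratio 0.20, interval 0.18 to 0.22), and its partner Rplp2 went from 21399 reads in control to 19762 in senescent cells (log2 ratio 0.11, interval 0.087 to 0.14). Rplp0 had the most reads of all members, 67886 in control and 59406 in senescent cells, and its log2 ratio of 0.037 (interval 0.021 to 0.053) turned to -0.070 under total-count and -0.0017 under upper-quartile scaling. Rpl12 was lower, with 41376 control and 33584 senescent reads (log2 ratio -0.071, interval -0.092 to -0.051).

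Around the opening of the peptide exit tunnel the 8 genes had a median of 0.081, -0.026 under total-count scaling, and ranged from -0.26 to 0.27. Rpl39, a very short protein of the tunnel wall, went from 21621 reads in control to 15438 in senescent cells (log2 ratio -0.26, interval -0.29 to -0.23). Rpl31 went from 22017 reads in control to 16889 in senescent cells (log2 ratio -0.15, interval -0.18 to -0.12). Rpl4, whose extension reaches into the tunnel, went from 38903 reads in control to 40066 in senescent cells (log2 ratio 0.27, interval 0.25 to 0.29). Elsewhere in the large subunit, Rpl6 went from 25632 reads in control to 26816 in senescent cells (log2 ratio 0.29, interval 0.27 to 0.32), and Rpl14, its neighbour in the subunit, went from 19323 reads in control to 19962 in senescent cells (log2 ratio 0.28, interval 0.25 to 0.31).

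Paralogues of a core protein stood together at the low end. The group has 8 genes and also takes in Rpl36al, whose name falls outside the rule, and Rps4l, which is not annotated as protein-coding. Of the 8 genes 4 had at least 100 reads, and all 4 were below 0 under each scaling. Of all genes, 49.6% were below 0 under TMM and 58.1% under total-count scaling. Their median was -0.26 against 0.11 over the members, in a list chosen with earlier results known. Rps27l, whose human counterpart is a known p53 target, was counted 8021 times in the control and 5459 times in the senescent cells (log2 ratio -0.33, interval -0.38 to -0.28), the lowest of all members. Its core protein gene Rps27 went from 17975 reads in control to 14178 in senescent cells (log2 ratio -0.11, interval -0.14 to -0.081). Rpl22l1, which can stand in for Rpl22, went from 7997 reads in control to 5591 in senescent cells (log2 ratio -0.29, interval -0.34 to -0.24). Rpl22 itself went from 8780 reads in control to 7465 in senescent cells (log2 ratio -0.0045, interval -0.049 to 0.040), an interval that holds 0. In these 2 pairs the interval of the paralogue did not overlap that of the core gene. Such intervals cover counting error only and are narrow beside the standard deviation of 0.15 among the members. How often other pairs of members fail to overlap was not counted.

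Rpl7l1 went from 4507 reads in control to 3461 in senescent cells (log2 ratio -0.15, interval -0.22 to -0.087), where Rpl7 went from 27750 reads in control to 28608 in senescent cells (log2 ratio 0.27, interval 0.25 to 0.30). Rpl36al went from 3833 reads in control to 2800 in senescent cells (log2 ratio -0.22, interval -0.29 to -0.15), and Rpl36a went from 10551 reads in control to 8296 in senescent cells (log2 ratio -0.12, interval -0.16 to -0.076). The intervals, again of counting error only, did not overlap for Rpl7l1 and Rpl7 and did for Rpl36al and Rpl36a. In each of the 4 pairs the paralogue had the lower ratio and the lower level per length in both libraries, except that Rpl22l1 stood at 138 and 113 and Rpl22 at 104 and 103. Whether reads were exchanged between paralogue and core gene was not tested. The best alignment of Rps27l with Rps27 was 76.4% identical over 254 bases, that of Rpl22l1 with Rpl22 74.6% over 299 bases and that of Rpl36al with Rpl36a 87.7% over 332 bases, while none was found between Rpl7l1 and Rpl7. Rpl3l, Rpl10l and Rpl39l, known from muscle and testis, had 0 reads, and Rps4l had 0 and 3. Their core genes had log2 ratios of 0.070 (0.040 to 0.10) for Rpl3, -0.017 (-0.043 to 0.0081) for Rpl10, -0.26 for Rpl39 and 0.19 (0.17 to 0.22) for Rps4x, of which Rpl3 turned to -0.036 under total-count scaling.

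Genes mutated in Diamond-Blackfan anaemia, an inherited failure of red cell production, had ratios close to those of the other members. The 18 listed genes had a median of 0.10 and the other 61 members a median of 0.11, with 27.8% and 26.2% of them below 0 under TMM scaling, and the median of the 18 was -0.0042 under total-count scaling. Among ribosomal components outside the name rule, Fau, which is made fused to a ubiquitin-like protein, went from 24548 reads in control to 23957 in senescent cells (log2 ratio 0.19, interval 0.17 to 0.22). Rack1, a scaffold on the head of the small subunit, went from 41282 reads in control to 39633 in senescent cells (log2 ratio 0.17, interval 0.15 to 0.19).

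Low counts of some members went with reads on near-identical copies elsewhere in the genome. Processed pseudogenes are copies of a spliced messenger RNA put back into the genome, and ribosomal protein genes have many of them. By a sequence match of at least 90% identity over at least 80% of the transcript, 744 other genes in the table were copies of a ribosomal protein transcript, 731 of them annotated as processed pseudogenes. They held 102220 control reads and 88887 senescent reads, 0.365% and 0.345% of all reads. Of the 79 members 77 had such a copy, and for 8 the copies held over 10% of the control reads of gene and copies together. How the counting assigned reads that fit several places is not given in the sources used here. The values of these 8 genes are therefore uncertain. Whether other members with copies lost reads to such places was not tested.

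Rps2, at the entry of the messenger RNA channel, had the most reads on copies. The gene itself had 8499 control reads and 7650 senescent reads, and its 41 copies had 42940 and 37539, of which the pseudogene Rps2-ps13 alone had 42784 and 37392. Copies therefore held 83.5% and 83.1% of the reads, and adding them raised the level of Rps2 per length from 159.7 to 967 in the control. For Rpl26 the copies held 94.2% of the control reads, with 12122 reads on Gm15772 and 745 on the gene, and adding them raised its level from 17.7, the lowest of all members, to 307. Of the control reads of gene and copies together, copies held 52.4% for Rpl30, most of them on Gm12191, 45.0% for Rpl29, 42.5% for Rps18, 41.3% for Rpl34, 21.3% for Rpl41 and 11.1% for Rpl35a.

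Adding the reads of copies shifted the log2 ratio of Rpl30 the most, from 0.25 on the gene to 0.13 with its copies. The log2 ratio of Rps2 was 0.078 on the gene (-0.029 under total-count scaling), 0.036 (0.016 to 0.056) on its copies and 0.043 on both, and that of Rpl26 was 0.11, 0.061 (0.023 to 0.098) and 0.064. Rps18 was the member whose sign turned, from 0.061 (0.027 to 0.094, and -0.046 under total-count scaling) on the gene to -0.055 with its copies, which alone stood at -0.23 (-0.27 to -0.19). With copies added, 22 members lay below 0 in place of 21. Rpl24, below the limit of 100 reads on the gene, had 18 reads there and 190 on its 4 copies in the control library and 18 and 159 in the senescent library, so copies held 91.3% and 89.8%. Gene and copies together had 385 reads, past that limit. The search by sequence was chosen after the counts were seen.

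**Figure D3:**
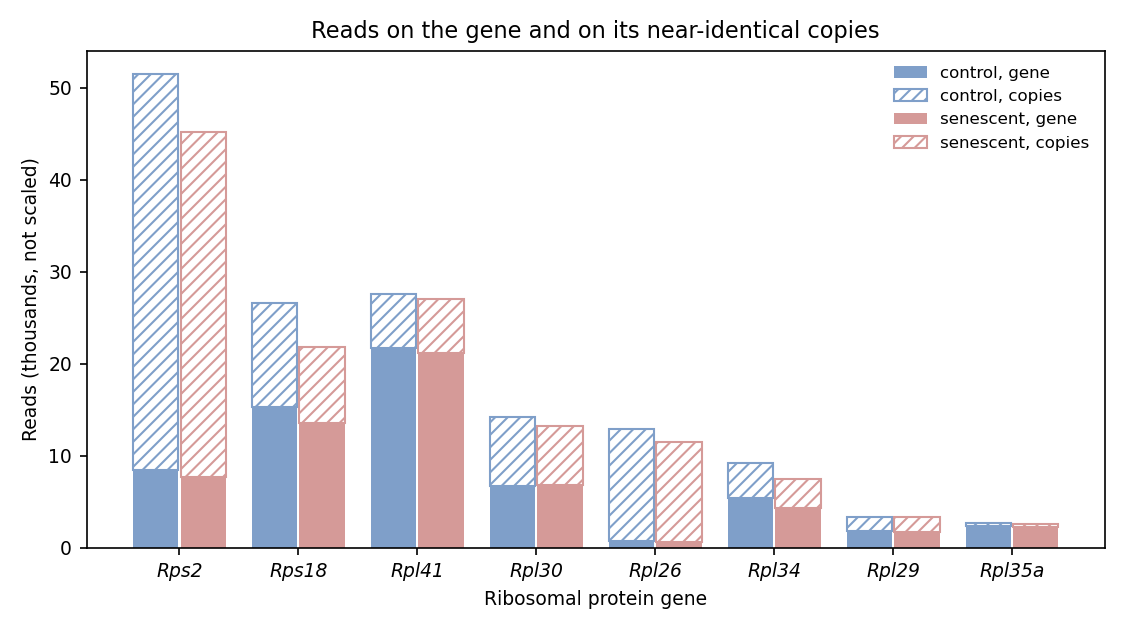
Unscaled reads, in units of 1000, on 8 ribosomal protein genes (filled) and on the copies matched to each by sequence (hatched, stacked on top), in blue for the control and red for the senescent library. Copies hold most of the reads of Rps2 and Rpl26, and in Rps18 the hatched part is smaller in the senescent library, 8218 against 11279 reads.

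Members share features that the name rule did not use. They lie on 19 chromosomes, 14 of them on chromosome 7 and 4 on the X chromosome. Their coding sequences are short, with a median of 152 codons, against 468 over the 10654 protein-coding genes with at least 100 reads. A small nucleolar RNA gene lies inside 30 of the 79 members on the same strand (38%), against 2.03% of those protein-coding genes. Such RNAs are cut from introns and guide the modification of ribosomal RNA, so these genes give a protein and a guide of the same particle. The 30 hosts had a median log2 ratio of 0.13 and the other 49 members 0.090. Rpl4 holds 5 such genes and Rps12 3. Across the 79 genes the log2 ratio had a Spearman's rho of -0.046 with exon length, 0.12 with reads and 0.0090 with the control level, values near 0.

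Transcription of most ribosomal protein genes starts at a C inside a run of pyrimidines, often as TCT, and the transcript then carries the tract that mTOR signalling acts on. The RefSeq promoter table for GRCm38.p6 had an entry for 59 members, and the first entry of each gene was used, counting the annotated start as +1. A TCT with its C at +1 was present in 8 of the 59 (13.6%) and in 1.52% of 27025 genes with an entry. A C at +1 followed by pyrimidines to +5 was present in 12 (20.3%) against 2.49%. Neither was found in any of 53 ribosome assembly factors or 68 mitochondrial ribosomal protein genes with an entry. The contrast was smaller when the C of a TCT could lie anywhere within 10 bases of +1, with 40.7% of the 59 members, 30.2% of all genes, 18.9% of the assembly factors and 19.1% of the mitochondrial set. CTTTCC, searched on both strands of the 300 bases, was present in 27 (45.8%) against 26.3%, and can overlap the other features. Annotated starts are inexact, since for 36 of the 59 a GENCODE start lay within 10 bases of the table's. The 12 members with the tract had a median log2 ratio of 0.059 and the other 47 a median of 0.11.

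The 15 bases before and 15 bases from the start are shown for the 4 members with the lowest and the 4 with the highest ratios among those with an entry, and for the 3 most read other members with a TCT at the start, so that the starts of members at both ends can be set side by side. Capitals mark the longest run of pyrimidines in each window.
Rps27l, chr9:66946071-66946100, plus strand: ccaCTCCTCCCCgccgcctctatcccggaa
Rpl22l1, chr3:28805493-28805522, plus strand: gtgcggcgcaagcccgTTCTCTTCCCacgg
Rpl39, chrX:37085208-37085237, minus strand: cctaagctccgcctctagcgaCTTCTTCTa
Rpl31, chr1:39367836-39367865, plus strand: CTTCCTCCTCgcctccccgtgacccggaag
Rps26, chr10:128626492-128626521, minus strand: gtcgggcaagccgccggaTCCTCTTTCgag
Rpl6, chr5:121204486-121204515, plus strand: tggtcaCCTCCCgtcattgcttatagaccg
Rps6, chr4:86857353-86857382, minus strand: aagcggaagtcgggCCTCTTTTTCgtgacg
Rps12, chr10:23787195-23787224, minus strand: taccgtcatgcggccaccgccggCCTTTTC
Rpl15, chr14:18270972-18271001, minus strand: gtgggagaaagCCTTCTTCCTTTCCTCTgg
Rpl14, chr9:120571502-120571531, plus strand: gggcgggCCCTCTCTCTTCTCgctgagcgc
Rpl28, chr7:4792950-4792979, plus strand: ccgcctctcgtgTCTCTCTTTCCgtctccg
Within these windows, runs of pyrimidines of 8 bases or more were present in the 4 members with the lowest ratios and in Rps26 and Rps6 among the 4 with the highest. The runs of Rps27l, Rpl31 and Rpl6 lie wholly before the annotated start, outside the transcript, and those of Rpl31 and Rps12 reach the edge of the window, so they can be longer than shown. The longest run, 17 bases, was in Rpl15, with a log2 ratio of -0.059, and the run of 14 bases in Rpl14 went with a log2 ratio of 0.28.

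Genes that build ribosomes had higher ratios than the ribosomal protein genes. Of 62 ribosome assembly factors with at least 100 reads, 49 (79.0%) were higher past 0.5, against 15.5% of all genes, none was lower past -0.5, and the median was 0.69 under TMM and 0.59 under total-count scaling, where 36 were higher past 0.5. Utp4, of the complex that processes the small subunit precursor, went from 1418 reads in control to 3170 in senescent cells (log2 ratio 1.39, interval 1.30 to 1.48). Mdn1, the large ATPase that remodels large subunit precursors, went from 1798 reads in control to 3658 in senescent cells (log2 ratio 1.25, interval 1.17 to 1.34), and Noc3l went from 1869 reads in control to 3592 in senescent cells (log2 ratio 1.17, interval 1.09 to 1.25). The most read was Ncl, which encodes nucleolin, with 34116 control and 44065 senescent reads (log2 ratio 0.60, interval 0.58 to 0.62). The lowest were Nop10 at -0.046 (-0.13 to 0.039), Xpo1 at -0.0052 (-0.062 to 0.052) and Bccip at 0.058 (-0.013 to 0.13), intervals that hold 0. Of the 62 genes 54 lay above Rps12, the highest member at 0.41, and 8 below.

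Genes for the ribosome of mitochondria, a list added after the values were seen, differed from both. Of 77 such genes 76 had at least 100 reads, 7 (9.21%) were lower past -0.5 and 1 (1.32%) higher past 0.5, against 20.1% and 15.5% of all genes. The median was -0.085, with 57.9% of them below 0 under TMM scaling, against 49.6% of all genes. Under total-count scaling the median was -0.19, with 12 lower past -0.5 and 0 higher past 0.5. That scaling lowered every gene by 0.11, and the shares of all genes past 0.5 in either direction under it are not given here, so the move from 7 to 12 has no background.

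**Figure D4:**
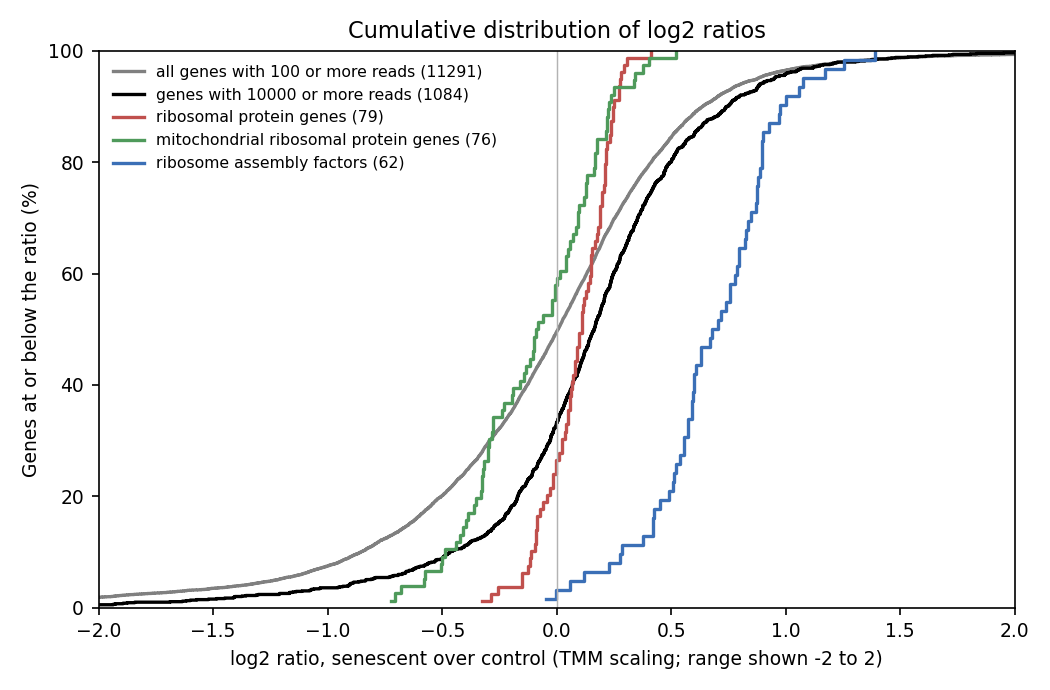
Share of genes, in percent, at or below each log2 ratio of senescent over control reads under TMM scaling, for 5 sets of genes with their sizes in brackets. The curve of the 79 ribosomal protein genes is steep and ends below 0.5, the mitochondrial set lies to its left at the median, and the ribosome assembly factors lie to its right with a median of 0.69.

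RNA polymerases I and III, which make ribosomal RNA and 5S RNA, and their factors had 12 of 28 genes (42.9%) higher past 0.5 and 1 (3.57%) lower past -0.5, against 15.5% and 20.1% of all genes, and a median of 0.36. Under total-count scaling 9 were higher. Polr3d, Polr3g and Polr1e were the highest, at 1.19 (1.08 to 1.31), 1.02 (0.84 to 1.22) and 0.82 (0.65 to 0.99). Taf1b, a subunit of the selectivity factor of polymerase I, was the lowest, with 323 control and 189 senescent reads (log2 ratio -0.54, interval -0.81 to -0.28), followed by Znrd1 at -0.29 and Polr1c at -0.23. Gtf3c1 had the most reads, 6689 and 8079, and a log2 ratio of 0.50 (0.46 to 0.55). Non-coding hosts of small nucleolar RNAs, which like ribosomal protein genes carry a pyrimidine tract, had 5 of 9 genes higher past 0.5, where 15.5% of all genes were, 3 under total-count scaling, and a median of 0.52. Among them Gas5 went from 5099 reads in control to 6402 in senescent cells (log2 ratio 0.56, interval 0.50 to 0.61). Snhg12, Snhg5 and Snhg15 were higher, at 0.76, 0.68 and 0.61, and Snhg3, Zfas1 and Snhg17 lower, at 0.080, 0.30 and 0.46.

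Initiation factors had 10 of 30 genes (33.3%) higher past 0.5 and none lower past -0.5, against 15.5% and 20.1% of all genes, and a median of 0.30. Under total-count scaling 7 were higher and the median was 0.20. Eif3a, the scaffold of the eIF3 complex, went from 23227 reads in control to 33719 in senescent cells (log2 ratio 0.77, interval 0.74 to 0.79), followed by Eif5b at 0.74 and the poly(A) binding protein gene Pabpc1 at 0.72. Eif4g2 was the most read, at 0.25, and Eif6, which keeps free large subunits from joining small ones, was the lowest, with 12682 control and 9645 senescent reads (log2 ratio -0.17, interval -0.20 to -0.13), then Eif3h at -0.065 and Eif3k at -0.0042. Genes listed with elongation and termination factors, not all of them such factors themselves, had 4 of 13 (30.8%) higher past 0.5. Among all genes 15.5% were, and among those with at least 10000 reads 19.9%. The median of the list was 0.29. Under total-count scaling 3 were higher and the median was 0.18. Eef1a1, which brings transfer RNAs to the ribosome and like the members has a tract at its 5' end, went from 270344 reads in control to 241855 in senescent cells (log2 ratio 0.069, interval 0.061 to 0.077), -0.038 under total-count scaling, and Tpt1 had a log2 ratio of 0.089 (0.079 to 0.099), -0.018 under total-count scaling. Eif5a2, Eef1e1 and Eef1g were the highest, at 1.17, 0.92 and 0.65, and Eef2k, the kinase that inhibits elongation, the lowest, at -0.39 (-0.46 to -0.31).

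**Figure D5:**
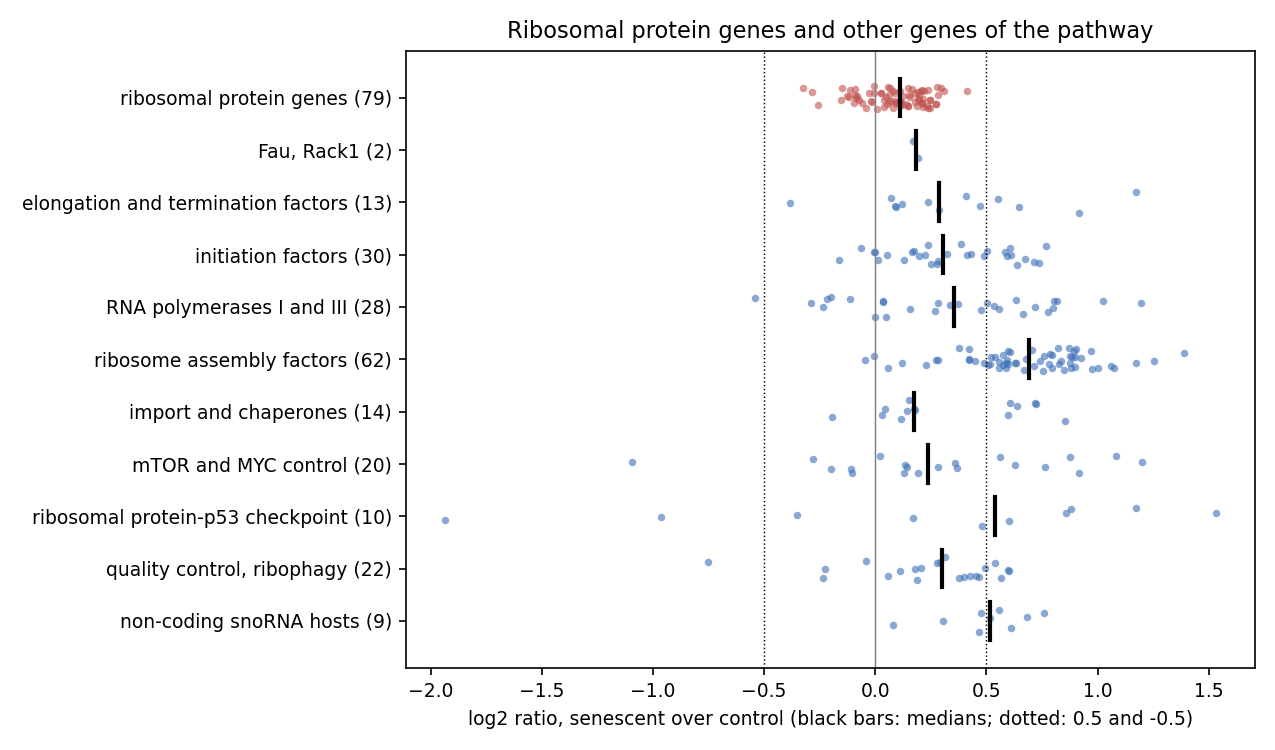
Log2 ratio of senescent over control reads (horizontal axis, TMM scaling) for each gene with at least 100 reads in the ribosomal protein group (red) and in 10 other lists (blue), with a black bar at each median, dotted lines at 0.5 and -0.5 and vertical scatter for display. The ribosomal protein genes lie between the dotted lines, while 49 of 62 ribosome assembly factors lie to the right of 0.5.

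Import factors and chaperones that carry new ribosomal proteins to the nucleus had 6 of 14 genes higher past 0.5, where 15.5% of all genes were, and a median of 0.18, against 4 genes and a median of 0.069 under total-count scaling. The importin Ipo7, which carries Rpl5 among others, went from 10254 reads in control to 15808 in senescent cells (log2 ratio 0.85, interval 0.82 to 0.89), while the Rpl3 chaperone Grwd1 stood at 0.72 (0.64 to 0.81), Ipo4 at 0.72 and the most read gene, Kpnb1, at 0.64. The lowest were Pdcd2l at -0.19, Aamp at 0.031 and Ipo9 at 0.044.

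Among genes of mTOR and MYC control, 7 of 20 were higher past 0.5 and 1 was lower past -0.5, against 15.5% and 20.1% of all genes. The median was 0.24, and 0.13 under total-count scaling, where 6 were higher. Myc, a transcription factor that drives ribosome production, went from 2239 reads in control to 4382 in senescent cells (log2 ratio 1.20, interval 1.12 to 1.27). Eif4ebp1, the translation inhibitor that mTOR switches off, went from 2250 reads in control to 4061 in senescent cells (log2 ratio 1.08, interval 1.01 to 1.16). Larp1, which binds the pyrimidine tract of ribosomal protein messenger RNAs, was the most read of the list, with 6482 control and 10450 senescent reads (log2 ratio 0.92, interval 0.87 to 0.96). Pdcd4, an inhibitor of the helicase eIF4A, went from 2926 reads in control to 1169 in senescent cells (log2 ratio -1.09, interval -1.19 to -0.996). Mlst8, a subunit of both mTOR complexes, stood at -0.28 and Ubtf, the activator of ribosomal RNA genes, at -0.20.

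Genes of the p53 checkpoint that free ribosomal proteins act on had 5 of 10 higher past 0.5, 2 lower past -0.5, and 1 past 1.5 in each direction under TMM scaling, where 15.5% of all genes were higher past 0.5, 20.1% lower past -0.5 and 4.75% past 1.5. The share of lower genes was thus like that of all genes. Mdm2 went from 3812 reads in control to 9417 in senescent cells (log2 ratio 1.53, interval 1.48 to 1.59), no longer past 1.5 under total-count (1.43) and upper-quartile scaling (1.495). Its partner Mdm4 went from 10678 reads in control to 2379 in senescent cells (log2 ratio -1.94, interval -2.001 to -1.87). The p53 targets Zmat3 and Ccng1, the latter with the most reads of the list, stood at 1.18 (1.11 to 1.25) and 0.88 (0.85 to 0.92), and Sesn1 and Bbc3, also p53 targets, at -0.97 (-1.40 to -0.56) and -0.35 (-0.47 to -0.23). Genes of ribosome quality control and ribophagy had 4 of 22 (18.2%) higher past 0.5, close to the 15.5% of all genes, 1 lower past -0.5 and a median of 0.30. Under total-count scaling none was higher past 0.5 and the median was 0.19. Ankzf1, which releases stalled chains from large subunits, was the lowest, with 1041 control and 527 senescent reads (log2 ratio -0.75, interval -0.91 to -0.60), then Usp21 at -0.24 and Eif2ak4 at -0.23. Ascc3 and Ascc2, which split collided ribosomes, were the highest, both at 0.60, then Otud3 at 0.56, and G3bp1 was the most read, at 0.47.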

How the data were processed

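The authors deposited 1 table of whole-number counts of reads per gene for both libraries, by Ensembl gene identifier. Per the labels, messenger RNA was selected by poly-T beads and copied with random primers, and the submitters' processing notes name CASAVA, STAR, DESeq2, edgeR and the build mm10. The counting tool, the gene annotation and the use of strand are not given in the sources used here. Each column was tied to its condition through the initial letter of a sample title.

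Symbols were found for 34490 of 35275 genes in GENCODE M21 (GRCm38), which also gave exon lengths. Counts were scaled with TMM in edgeR 4.0.16 (R 4.3.3), with total counts, upper quartiles and DESeq2 1.42.0 size factors as alternatives. The TMM factors were 1.04 (control) and 0.964 (senescent). Ratios used a prior count of 1 in proportion to library size, and 95% intervals were Clopper-Pearson intervals for the fraction of a gene's reads that came from senescent cells. A gene was called past 0.5 or 1.5 when its interval also held no 0. Copies were matched with blastn 2.17.0 over at least 60 bases. Ratios and plots were made with matplotlib 3.10.9, scipy 1.17.1, pandas 2.3.3 and numpy 2.4.6 under Python 3.11.15, after the method was tested on simulated data.

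The members and gene lists were chosen with earlier results of these data known. Named by a rule written beforehand were the 5 lowest and 5 highest ratios and the 5 highest and 3 lowest control levels among members, the 5S, stalk and paralogue genes with their core genes, Fau and Rack1. Of each pathway list written beforehand, the 3 lowest, the 3 highest and the most read gene are named, while no gene is named from the mitochondrial list added later. The other members given in the text, the pseudogenes and the markers given with a ratio were chosen after their values were seen. Values of some genes, and of a group that holds one of them, are not reported here.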

Additional observations from a re-analysis of the deposited data

How the results depend on the processing

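The count of members past 0.5 in either direction, and past 1.5, was 0 under every scaling, prior count, read minimum and pseudogene setting tried. At a threshold of 0.25 it was 3 lower and 7 higher, and at 1 it was 0. The share of all genes past these thresholds is not given here. For scale, the lower and upper quartiles over all genes with at least 100 reads were -0.38 and 0.33.

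The median over all members, 0.11, was 0.0021 under total-count scaling, 0.10 with DESeq2 size factors, 0.070 under upper-quartile scaling and 0.096 with the reads of copies added, an alternative chosen after seeing the data. The small subunit median was -0.014, 0.087 and 0.054 under these 3 scalings, and the large subunit median 0.0028, 0.10 and 0.071. Under total-count scaling 39 members lay below 0 in place of 21, and 58.1% of all genes in place of 49.6%. That scaling makes no correction for composition, which accounts for the same shift in every gene. The other prior counts tried and read minimums of 10 and 1000 hardly moved the medians. Each move was smaller than the width of the counting interval for the ratio of the group's summed reads.

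The members' share of reads in the control and senescent library was 6.33% and 6.25% of reads on nuclear genes, 6.34% and 6.27% with same-named pseudogenes added, and 6.51% and 6.43% with all copies added, so the senescent share was the lower each time.

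Signs turned under total-count scaling for Eef1a1 (-0.038), Rpl3 (-0.036), Rpl36 (-0.017), Rplp0 (-0.070), Rps2 (-0.029), Rps18 (-0.046) and Tpt1 (-0.018), and under upper-quartile scaling for Rplp0 (-0.0017). Medians turned for the 5S pair (-0.096, and -0.028 under upper-quartile scaling), the stalk (-0.031), the exit tunnel (-0.026), the small subunit head (-0.011), the entry and decoding group (-0.023) and the Diamond-Blackfan genes (-0.0042). Of the 109 genes run through the scalings, no other whose interval held no 0 changed sign. Some of them, and all counts per list, were run after seeing the data. Under total-count scaling the genes past 0.5 went from 4 to 0 for quality control, from 5 to 3 for small nucleolar RNA hosts and, in the mitochondrial set, from 7 to 12 lower and from 1 to 0 higher, which was 0 under upper-quartile scaling too. The shares of all genes past 0.5 are given under TMM scaling only. Mdm2 was past 1.5 only under TMM scaling and DESeq2 size factors.

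No paired analysis was possible because each condition has 1 library. Rpl26 itself had 745 control and 687 senescent reads, and its interval holds 0. Of the control reads of Rpl26 and its copies together, copies held 94.2%. The lack of replicates limits every ratio.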
